A study of Homo sapiens with 6 samples.

Results

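Transcript levels in OPM2 were compared with those in ARP1 and OCI-MY5 over 12074 genes. All 3 are established human multiple myeloma cell lines, multiple myeloma being the cancer that plasma cells, the makers of antibodies, give rise to. The study sorted each line by flow cytometry into CD24+ and CD24− cells, CD24 being a glycosylated protein of the cell surface, and asked what distinguishes the CD24+ cells, which its submitters describe as cancer stem cells. Each line and fraction gave 1 array (Affymetrix Human Genome U133 Plus 2.0), so OPM2 holds 2 of the 6 arrays and the other lines hold 4, 2 for ARP1 and 2 for OCI-MY5. Arrays were assigned by the cell line in their labels. Per the labels all lines grew in RPMI-1640 medium with fetal bovine serum and antibiotics, and no drug or gene transfer is named for any of them. No label tells of repeated cultures, so the p-values measure the spread between these arrays, part of which may be technical. ARP1 and OCI-MY5 share 1 mean in the fit, so that spread also holds the difference between these 2 lines. Every difference is one between the line OPM2 and 2 other lines.

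Myelomas fall into classes by the gene that an early rearrangement of the immunoglobulin heavy chain locus switches on. In the t(4;14) class, to which OPM2 is known to belong, the rearrangement splits the locus between the histone methyltransferase gene NSD2 and the receptor tyrosine kinase gene FGFR3 and can raise both. In the t(14;16) class it raises MAF, a transcription factor that drives the cyclin gene CCND2, the integrin gene ITGB7 and the chemokine receptor genes CCR1 and CX3CR1.

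The values are MAS5 intensities as the authors deposited them, and differences are OPM2 minus the others on the log2(intensity + 16) scale, with the fraction as covariate and the standard error of the fit after ±. This scale understates the difference of a dim gene. A gene was called higher or lower when limma's adjusted p (Benjamini-Hochberg over all 12074 genes) was at most 0.05 and both OPM2 arrays lay beyond all 4 others. Intensities are given for CD24+ and then CD24− cells. In RNA from whole sorted fractions, fewer cells that express a gene and less RNA per cell cannot be told apart.

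The CD24+ array of OPM2 stood apart. Its 18 spike-in probe sets, which report bacterial transcripts added during processing, had a geometric mean of 37361.9, 5.45 times the median of the other arrays (6174.55 to 7399.47). Its median intensity was 135.4 against 69.0 to 84.2, and its 3′ over 5′ signal ratio for ACTB, a measure that increases with RNA breakage or incomplete copying, was 27.1 against 2.47 to 23.2. The ratio on the CD24− array of OPM2, 7.54, lay inside that range. The calls that remained without the CD24+ array, which leaves 1 OPM2 array, are therefore given for each gene group.

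OPM2 carried the plasma cell transcripts that its label implies. The 10 marker genes checked (CD38, SDC1, XBP1, IRF4, PRDM1, TNFRSF17, SLAMF7, MZB1, JCHAIN and POU2AF1) were all bright enough to be tested. SDC1, which encodes the surface proteoglycan CD138, measured 6877 and 6122 in ARP1, 2595 and 3156 in OCI-MY5, and 12025 and 17529 in OPM2. TNFRSF17, the receptor BCMA, measured 11584 and 11033 in ARP1, 4104 and 3885 in OCI-MY5, and 34757 and 29319.5 in OPM2. On the brightest probe set of these genes both OPM2 arrays lay above all others. Neither gene was called (differences 1.75 ± 0.49 and 2.25 ± 0.58, limma adjusted p = 0.0681 and 0.0551). The other probe set of SDC1 measured 4364 and 4165 in ARP1, 1409 and 1282 in OCI-MY5, and 3537 and 3660.5 in OPM2, which lay below ARP1. MZB1, also of the 10, lay below all other arrays in OPM2, as given below. CD24 itself was too dim to be tested, at 29.0 and 47.2 in ARP1, 70.5 and 3.35 in OCI-MY5, and 99.2 and 58.6 in OPM2.

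OPM2 differed from both other lines far more than they differed from each other. Of the 12074 genes, 648 (5.37%) were called higher and 1146 (9.49%) lower in OPM2. Both OPM2 arrays lay above all 4 others for 2572 genes (21.3%) and below them for 3055 (25.3%). The called differences were large, with a median of 1.69 among the higher and −1.96 among the lower genes, and 120 higher and 301 lower genes differed by at least 3 on the log2 scale. Pearson's r between arrays, across genes, which are not independent replicates, was 0.794 to 0.839 for OPM2 with the others and 0.934 to 0.939 for ARP1 with OCI-MY5. At least 2-fold apart were 27.6% to 37.1% of genes between an OPM2 array and another line, and 13.9% to 16.6% between ARP1 and OCI-MY5. The 2 OPM2 arrays themselves were less alike than the fractions of the other lines, with r of 0.936 and 18.2% of genes at least 2-fold apart, against 5.04% in ARP1 and 5.71% in OCI-MY5.

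**Figure D1:**
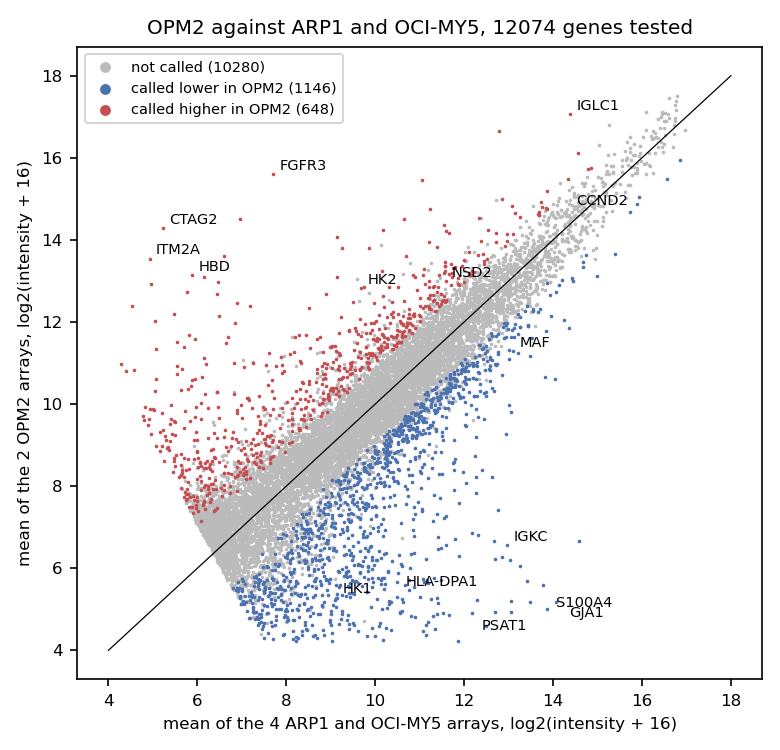
Mean log2(intensity + 16) of the 2 OPM2 arrays (vertical) against that of the 4 ARP1 and OCI-MY5 arrays (horizontal), 1 point per tested gene, with equal levels on the black line. The 648 genes called higher (red) reach from dim to bright genes, with FGFR3 far above the line, and many of the 1146 called lower (blue) lie at the bottom of the plot, near the background of the OPM2 arrays.

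Many called genes were at background in one of the groups. The chip's control probe sets for bacterial TrpnX, of which no transcript is added, gave 2.23 to 96.4 over the 6 arrays, which serves here as the background range. It rests on 3 probe sets, and its top comes from the OPM2 CD24+ array. The maxima on the other arrays were 10.3 to 64.5, so the range is wide for those. For 374 of the 1146 lower genes both OPM2 arrays lay within that range, and for 122 of the 648 higher genes all 4 other arrays did. The size of such a difference depends on the added 16, so no fold is given for these genes. The mean of the 4 other arrays was under the brightness limit for 150 higher genes, which therefore entered the test through OPM2 and had to differ, and that of the OPM2 arrays for 413 lower genes. Without the OPM2 CD24+ array, 1732 of the 1794 called genes were still tested. Of these 1727 kept their direction and 1724 stayed beyond the other arrays. The rule for a call all but fixes both counts, since the remaining OPM2 array already lay beyond the same 4 arrays. Most of the 1732 were no longer called. With the mean of each line as 1 unit, which leaves 3 units, 505 were still called, 145 genes in all being higher and 365 lower. The balance of directions depended on the scaling: 36.1% of called genes were higher in OPM2 as deposited and 18.6% after median centring of the arrays, a step that moved the median difference of all genes from −0.0021 to −0.33. Counts of called members in the gene lists below are to be read against the 5.37% and 9.49% of all genes.

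The widest gaps upwards were of genes that were dim in ARP1 and OCI-MY5 and strong in OPM2. CTAG2, a cancer testis antigen that healthy tissue makes mainly in the testis, measured 45.1 and 8.64 in ARP1, 13.7 and 27.0 in OCI-MY5, and 20986 and 18878 in OPM2. It was higher in OPM2 (9.06 ± 0.40, limma adjusted p = 0.000527), and the other arrays lay within the TrpnX range. FGFR3, a receptor for fibroblast growth factors, measured 149.8 and 58.7 in ARP1, 383 and 362 in OCI-MY5, and 55028 and 44707 in OPM2. It was 239-fold higher (7.90 ± 0.71, limma adjusted p = 0.00282; 8.06 without the OPM2 CD24+ array). ITM2A, a membrane protein of developing T cells and cartilage, measured 3.94 and 11.6 in ARP1, 26.4 and 20.9 in OCI-MY5, and 12555 and 11333 in OPM2, a difference of 8.62 ± 0.37. The other leading genes of this direction belong to unlike families. They include PLS3, which bundles actin filaments (7.96 ± 0.44), CTHRC1, a secreted protein of collagen matrix (7.55 ± 0.23), ZIC2, a transcription factor of the developing nervous system (6.70 ± 0.21), and RELN, the secreted protein reelin (6.96 ± 0.74). MEGF6 (7.86 ± 0.28), ZNF595 (7.0 ± 0.40), BEX3 (6.42 ± 0.33) and CLEC2B (6.52 ± 0.47) had gaps of the same order. Over the leading genes named here limma's adjusted p ran from 0.000335 for CTHRC1 to 0.00446 for RELN. For CTAG2, ITM2A, PLS3, ZIC2, RELN, MEGF6 and BEX3 the mean of the ARP1 and OCI-MY5 arrays was under the brightness limit. These genes entered the test through OPM2 and had to differ, so their p-values add no support. ZIC2, MEGF6 and BEX3 were not tested without the OPM2 CD24+ array. Of the 15 leading genes of this direction 10 stayed called without the OPM2 CD24+ array.

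Other genes were strong in ARP1 and OCI-MY5 and at background in OPM2. CRIP1, a small LIM domain protein, measured 12120.3 and 10297 in ARP1, 12203 and 11263 in OCI-MY5, and 16.6 and 24.2 in OPM2. It was lower in OPM2 (−8.31 ± 0.23, limma adjusted p = 0.000335). GJA1, which encodes connexin 43, the protein of gap junctions, measured 13540.1 and 16929.9 in ARP1, 20356 and 19058 in OCI-MY5, and 5.27 and 44.7 in OPM2, a difference of −8.91 ± 0.39 (limma adjusted p = 0.000527). Both OPM2 values lay within the TrpnX range for these genes. The next genes by the width of the gap include MCUB, a subunit of the mitochondrial calcium uniporter (−7.90 ± 0.40), MGST1, a membrane-bound glutathione transferase (−7.92 ± 0.36), and KCNK1, a potassium channel (−7.76 ± 0.51). LGALS3, the sugar-binding protein galectin 3 (−7.20 ± 0.34), and CTSZ, a lysosomal protease (−6.80 ± 0.27), were also among them. So were EVI2A (−8.19 ± 0.55), CLECL1 (−7.06 ± 0.36), SEPTIN10 (−7.28 ± 0.33) and GPR27 (−6.76 ± 0.25). A second probe set of LGALS3 gave 1.68, that of CLECL1 0.55 and that of GPR27 0.30, and 1 of the 4 of KCNK1 gave 0.36, while all 5 probe sets of MGST1 were lower in OPM2. Of the 15 leading genes of this direction 13 stayed called without the OPM2 CD24+ array.

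**Figure D2:**
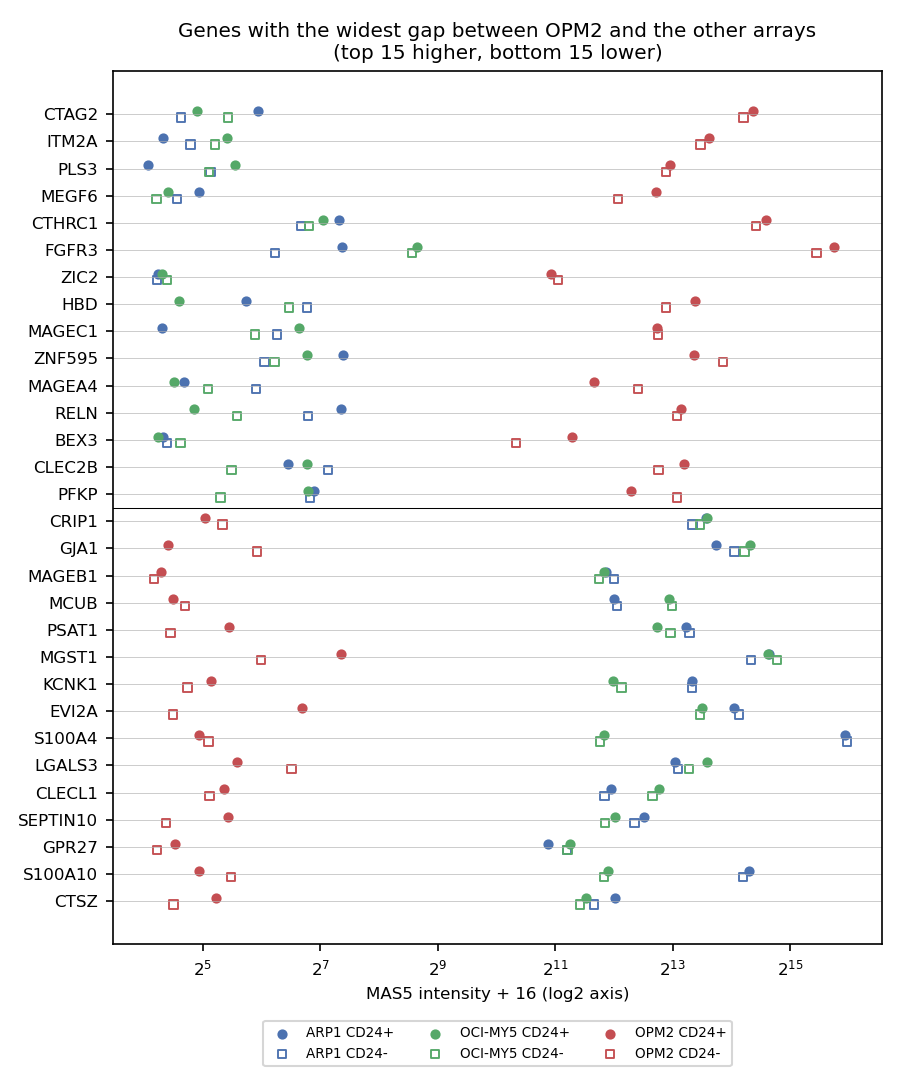
MAS5 intensity plus 16 on a log2 axis for the 15 genes called higher (upper block) and the 15 called lower (lower block) with the widest gap between the nearest OPM2 array and the nearest other array, 1 marker per array (filled circle CD24+, open square CD24−). In the upper block the OPM2 markers (red) sit far right of those of ARP1 (blue) and OCI-MY5 (green), in the lower block far left, and the fractions of a line lie close together beside these gaps.

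Both genes at the t(4;14) breakpoint were higher in OPM2. NSD2 measured 4454 and 3436 in ARP1, 2303 and 2466 in OCI-MY5, and 8911 and 7508 in OPM2. It was 2.67-fold higher (1.42 ± 0.34, limma adjusted p = 0.0466), and 5 of its 6 probe sets were higher, by up to 2.87, with the remaining one at −0.02. Of 17 genes tested around the breakpoint, 2 were called higher, NSD2 and FGFR3, and 2 lower, LETM1 (−1.19 ± 0.29) and IDUA (−1.15 ± 0.24), and the median difference was 0.10, or −0.23 with centred arrays. LETM1, a protein of the inner mitochondrial membrane, measured 1111 and 989 in ARP1, 1619 and 1434 in OCI-MY5, and 531 and 557 in OPM2. Without the OPM2 CD24+ array only FGFR3 of the 17 stayed called, and NSD2 differed by 1.36.

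MAF and its targets did not move together. MAF was lower in OPM2, while CX3CR1, ITGB7 and CCR1 were higher. MAF measured 7031 and 9064 in ARP1, 9341 and 9833 in OCI-MY5, and 2295 and 2665 in OPM2. This was 3.52-fold lower (−1.82 ± 0.23, limma adjusted p = 0.00791), but its probe sets disagreed: 4 of 6 were lower and the others were at 0.13 and, for the bright one, 0.25. ITGB7, an integrin chain of lymphocyte homing, measured 4770.3 and 4757 in ARP1, 7048 and 5079.8 in OCI-MY5, and 14170.1 and 18116 in OPM2, a difference of 1.58 ± 0.28 (limma adjusted p = 0.0204). Both OPM2 arrays exceeded every other array, which the rule for a call requires, with a gap of 1.01 on the log2 scale. CX3CR1 differed by 4.55 ± 0.43 and CCR1 by 1.23 ± 0.23. The mean of the ARP1 and OCI-MY5 arrays was under the brightness limit for CX3CR1. It therefore entered the test through OPM2 and had to differ, so its call adds no support. RND3, a small GTPase-like regulator of the cytoskeleton, was lower at 426 and 367 in ARP1, 809.8 and 649.9 in OCI-MY5, and 8.33 and 29.7 in OPM2, a difference of −4.05 ± 0.44 (limma adjusted p = 0.005). Over the list, 3 of 10 tested genes were called higher and 2 lower, with a median of 0.77 (0.94 without the OPM2 CD24+ array, where CX3CR1 alone stayed called).

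The genes of the G1 checkpoint, where D cyclins and their kinases inactivate the retinoblastoma proteins, differed little as a list. CCND2 measured 19168 and 18742 in ARP1, 23543 and 27575 in OCI-MY5, and 42904 and 37916 in OPM2, both OPM2 arrays being highest, but was not called (0.88 ± 0.27, limma adjusted p = 0.0838). Its dimmer probe sets were all higher, by 1.09, 1.52 and 1.87. CCND1 was too dim to be tested, at 6.02 and 2.94 in OPM2. RB1, the retinoblastoma gene, was called higher, at 2694 and 3403 in ARP1, 2132 and 2586 in OCI-MY5, and 5579 and 5594 in OPM2 (1.06 ± 0.25, limma adjusted p = 0.046), and so was its relative RBL1 (1.35 ± 0.32). These were the only genes called among the 19 tested, whose median difference was −0.02. Neither was called after median centring or without the OPM2 CD24+ array (limma adjusted p = 0.294 for RB1 and 0.258 for RBL1), and 1 of the 4 probe sets of RBL1 gave −0.72.

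Apart from FGFR3, INSR was the only receptor tyrosine kinase called higher among the 17 tested. INSR, the insulin receptor, measured 493 and 633 in ARP1, 796 and 469 in OCI-MY5, and 6976 and 2851 in OPM2, a difference of 2.90 ± 0.37 (limma adjusted p = 0.00744). The CD24+ array was the higher of the OPM2 pair, and without it the difference was 2.35. MET, the receptor for hepatocyte growth factor, was lower at 633 and 655 in ARP1, 1486 and 1379 in OCI-MY5, and 178 and 152 in OPM2 (−2.43 ± 0.46, limma adjusted p = 0.0241), although 1 of its 4 probe sets gave 0.15. FGFR4 was called lower by its brightest probe set (−1.72 ± 0.36), but 3 of its 4 probe sets were higher, and its difference was 0.72 without ARP1, where another probe set was the brightest. The list's median was −0.08, and FGFR3 alone stayed called without the OPM2 CD24+ array.

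Genes that report on or restrain RAS and ERK signalling moved in both directions in OPM2. DUSP4, a phosphatase that inactivates ERK and related kinases, measured 987 and 842 in ARP1, 420.4 and 254 in OCI-MY5, and 18251 and 16313 in OPM2. It was 30.6-fold higher (4.94 ± 0.57, limma adjusted p = 0.00577), and all 3 of its probe sets were higher. EGR1, an immediate early transcription factor, was lower at 3079 and 3935 in ARP1, 724 and 975 in OCI-MY5, and 88.2 and 10.6 in OPM2 (−5.04 ± 0.90, limma adjusted p = 0.0207). SPRY2, a feedback inhibitor of receptor signalling, differed by 1.92 ± 0.34. It entered the test through OPM2, since the mean of the ARP1 and OCI-MY5 arrays was under the brightness limit. Its relative SPRY4 differed by −2.21 ± 0.35 and the ETS transcription factor ETV4 by −1.89 ± 0.40. Of 16 genes tested 2 were called higher and 3 lower, with a median of −0.32 (−0.65 with centred arrays). None stayed called without the OPM2 CD24+ array.

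In PI3K and AKT signalling, 2 of 20 tested genes were called higher and 2 lower, with a median of 0.13 (−0.20 with centred arrays). PIK3CG, the catalytic PI3K subunit of leukocytes that G protein-coupled receptors activate, measured 1612 and 1731 in ARP1, 1334 and 1518 in OCI-MY5, and 193 and 5.40 in OPM2. It was 23.3-fold lower (−4.54 ± 0.75, limma adjusted p = 0.0164), and alone in the list kept its direction and call without the CD24+ array (−6.26). INPP5D, the lipid phosphatase SHIP1, was lower by a fitted difference of −2.85 ± 0.66. AKT1 (1.08 ± 0.26) and RICTOR, a subunit of the kinase complex mTORC2 (0.92 ± 0.22), were higher, and neither was called with centred arrays.

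Several surface proteins that myeloma therapies target were higher in OPM2. Of 16 tested, 5 were called higher and none lower, 11 lay above all other arrays and none below, and the median difference was 1.52, against −0.0021 over all genes. SLAMF7, the target of elotuzumab, measured 727 and 736 in ARP1, 257 and 317 in OCI-MY5, and 6757 and 6263 in OPM2. It was 13.7-fold higher (3.78 ± 0.52, limma adjusted p = 0.00958), as were all 3 of its probe sets. LY9, another receptor of the SLAM family, measured 117 and 147 in ARP1, 99.0 and 134 in OCI-MY5, and 1282 and 983 in OPM2, a difference of 3.03 ± 0.26 (limma adjusted p = 0.00247). NCAM1, the adhesion molecule CD56 that malignant plasma cells often carry, measured 301 and 253 in ARP1, 605 and 546 in OCI-MY5, and 2142 and 1564 in OPM2, a difference of 2.15 ± 0.43. Every OPM2 value of these genes exceeded every other value, which the rule for a call requires. ITGB7, described above, and CD48, an adhesion partner of lymphocyte receptors (1.45 ± 0.28), were the other called members. The median was 1.59 without the OPM2 CD24+ array, where LY9 alone stayed called, and 1.19 with centred arrays.

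Plasma cell identity genes held 3 called higher and none called lower among 22 tested, with a median of 0.53. In this list 10 genes lay above all other arrays and 6 below, against 21.3% and 25.3% of all genes. POU2AF1, the coactivator of B lineage transcription OCA-B, measured 4702 and 4211 in ARP1, 1234 and 1308 in OCI-MY5, and 29408 and 25722 in OPM2. It was 11.5-fold higher (3.52 ± 0.68, limma adjusted p = 0.0253). XBP1, the transcription factor of the secretory programme, measured 13607 and 16697 in ARP1, 12726 and 17179.9 in OCI-MY5, and 26413 and 28605 in OPM2, a smaller difference of 0.88 ± 0.22 (limma adjusted p = 0.0487), while its other probe set gave −0.43. SLAMF7 is the third of them. None of the 3 was called without the OPM2 CD24+ array, where the list's median was 0.35. Not every identity gene was higher: MZB1, a chaperone of antibody secretion, lay below all other arrays in OPM2 (11893 and 9222 in ARP1, 5963 and 5072 in OCI-MY5, and 4194 and 3792 in OPM2), with a difference of −0.93 ± 0.40 that was not called.

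Genes of the earlier B cell stage leaned the other way, with 5 of 13 called lower and 1 higher. PAX5, the factor that keeps B cells from becoming plasma cells, measured 369.6 and 272 in ARP1, 334 and 421 in OCI-MY5, and 16.4 and 15.9 in OPM2. It was lower, with both OPM2 arrays in the background range (−3.49 ± 0.26, limma adjusted p = 0.0016), although a dimmer probe set of the gene gave 2.37. ID3, an inhibitor of E proteins, measured 1547 and 1695 in ARP1, 8883 and 6351 in OCI-MY5, and 316 and 159.9 in OPM2, a difference of −3.86 ± 0.84. TCL1A, a coactivator of AKT, differed by −2.51 ± 0.30, its other probe set by 0.83. BCL11A, a zinc finger repressor, was the member called higher, at 110.5 and 195 in ARP1, 7.48 and 75.2 in OCI-MY5, and 935 and 1636 in OPM2 (3.85 ± 0.73, limma adjusted p = 0.0243), and all 4 of its probe sets were higher. The list's median was −0.29, and PAX5 was the one still called without the OPM2 CD24+ array.

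OPM2 was called higher in IGLC1 and lower in IGKC, of the lambda and kappa light chains. IGKC, the kappa constant region, measured 13368 and 21079 in ARP1, 3750.1 and 3886 in OCI-MY5, and 74.5 and 84.4 in OPM2. It was lower in OPM2, where both values lay in the background range (−6.40 ± 0.80, limma adjusted p = 0.00724). IGLC1, of the lambda constant regions, measured 25488 and 22522 in ARP1, 18787 and 19337 in OCI-MY5, and 206787 and 90885 in OPM2, a difference of 2.68 ± 0.34 (limma adjusted p = 0.00721). The lambda probe sets match several near-identical genes, so the value belongs to the family. The 9 probe sets of IGLC1 ran from −0.76 to 7.24, with 7 higher, and the 8 of IGKC from −6.40 to 0.64, with 4 higher. The other 5 genes of the list were not called. Without the OPM2 CD24+ array neither IGKC nor IGLC1 was called (limma adjusted p = 0.0839 and 0.0679).

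OPM2 had little transcript of the main MHC class II genes, which present peptides to helper T cells. Of 14 class II genes tested, 7 were called lower and none higher, and the median difference was −1.42 (−1.23 without the OPM2 CD24+ array, −1.75 with centred arrays). HLA-DPA1 measured 3431 and 3133 in ARP1, 2227 and 1419 in OCI-MY5, and 13.96 and 32.7 in OPM2. It was lower, down to the background range (−5.99 ± 0.45, limma adjusted p = 0.00162). HLA-DRA measured 4039 and 3924 in ARP1, 2594 and 2121 in OCI-MY5, and 111 and 171 in OPM2, a difference of −4.32 ± 0.38 (limma adjusted p = 0.00254). OPM2 lay far below the lowest of the other arrays for both, and OCI-MY5 lay below ARP1. HLA-DPB1 differed by −5.19 ± 0.47 and HLA-DMA, which loads peptides, by −3.43 ± 0.25. CIITA, the transactivator that switches these genes on, measured 217 and 127 in ARP1, 263 and 176 in OCI-MY5, and 65.9 and 19.9 in OPM2. Its difference was −1.92 ± 0.27 (limma adjusted p = 0.0102) on its brightest probe set, but the 2 dimmer ones gave 1.25 and 0.57. The difference read for CIITA was 0.79 without the OCI-MY5 CD24− array and 0.54 without OCI-MY5, where another probe set was the brightest. HLA-DPA1, HLA-DPB1, HLA-DRA and HLA-DMA each stayed called without the OPM2 CD24+ array.

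The promoters of HLA-DPB1 and HLA-DMA are shown because the class II genes were lower together and share a promoter layout through which CIITA acts, with a Y box bound by NF-Y. Both are RefSeq sequences of GRCh38.p14, from 250 bases before to 50 after the gene's start. HLA-DPB1 lies at chr6:33075740-33076039 on the plus strand and HLA-DMA at chr6:32953048-32953347 on the minus strand. Capitals mark the Y box core CCAAT or its reverse complement ATTGG.
HLA-DPB1: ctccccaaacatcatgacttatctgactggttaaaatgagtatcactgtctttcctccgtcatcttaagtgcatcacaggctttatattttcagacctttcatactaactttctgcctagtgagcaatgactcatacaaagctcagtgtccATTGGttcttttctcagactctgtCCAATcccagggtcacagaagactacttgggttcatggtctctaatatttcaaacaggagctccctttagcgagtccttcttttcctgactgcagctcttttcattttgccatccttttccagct
HLA-DMA: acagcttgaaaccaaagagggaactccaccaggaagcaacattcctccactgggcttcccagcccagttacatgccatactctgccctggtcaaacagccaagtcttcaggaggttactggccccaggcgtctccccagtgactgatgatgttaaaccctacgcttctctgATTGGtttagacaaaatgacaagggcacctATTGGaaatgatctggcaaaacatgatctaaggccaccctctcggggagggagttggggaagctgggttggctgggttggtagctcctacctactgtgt
Each promoter holds 2 matches. Over all 27195 RefSeq promoters 35.7% hold at least 1 match on either strand, and 3 of the 5 called class II genes that could be matched to a promoter do, the third being HLA-DRB1. A match describes letters and not a bound site.

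In class I presentation 4 genes that process or load peptides were called lower. PSMB9, an immunoproteasome subunit, measured 4426 and 4866 in ARP1, 5226 and 4759 in OCI-MY5, and 383 and 443 in OPM2. It was 11.3-fold lower (−3.50 ± 0.22, limma adjusted p = 0.00103; −3.39 and still called without the OPM2 CD24+ array). TAPBP, or tapasin, which holds class I molecules at the peptide transporter, measured 1914 and 1963 in ARP1, 2256 and 1633 in OCI-MY5, and 629.9 and 515 in OPM2, a difference of −1.73 ± 0.23. The transporter subunit TAP2 (−1.48 ± 0.27) and the trimming peptidase ERAP2 (−2.62 ± 0.56) were also called, though 2 of the 4 probe sets of TAP2 were higher. B2M, the shared light chain of class I, differed by −0.08 ± 0.22 and HLA-B by −0.46 ± 0.44, neither called. Of 19 genes tested 4 were called lower and none higher, with a median of −0.61, or −0.22 without the OPM2 CD24+ array, where PSMB9 alone stayed called. The median was −0.93 against ARP1 and −0.18 against OCI-MY5.

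**Figure D3:**
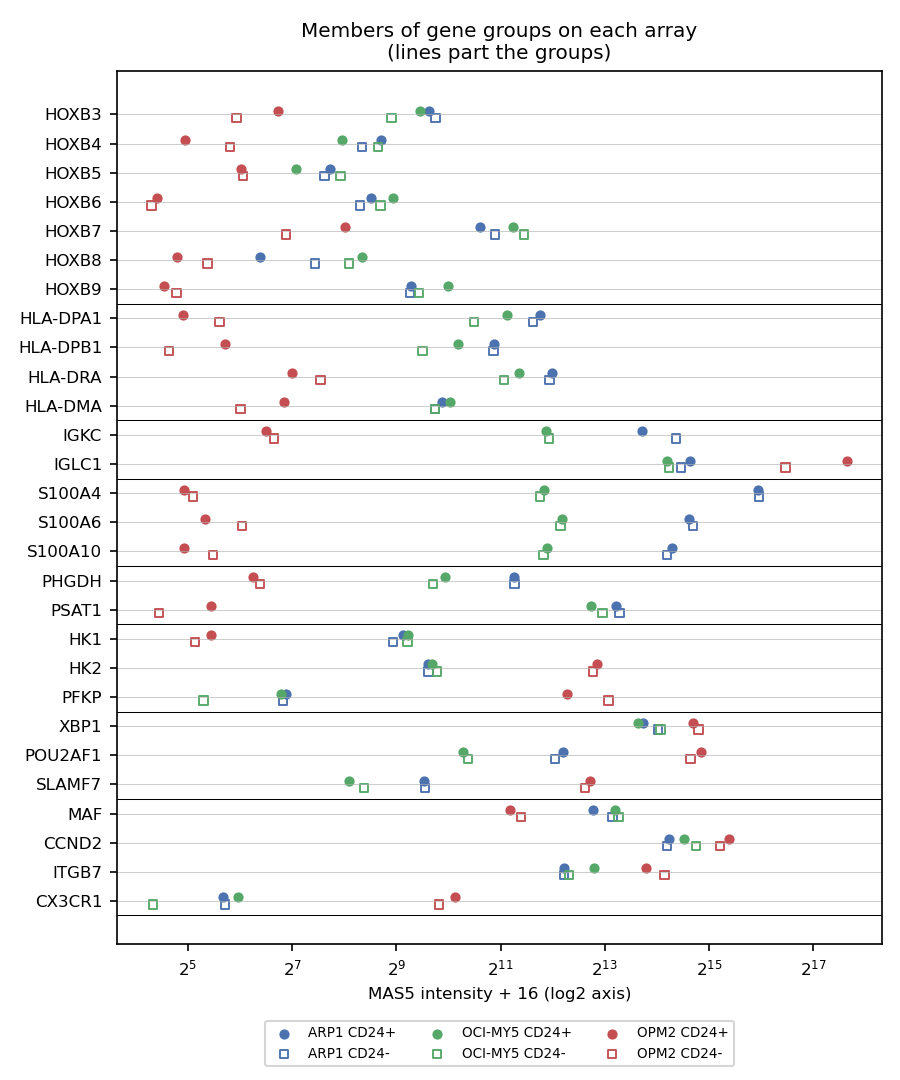
MAS5 intensity plus 16 on a log2 axis for members of 8 gene groups parted by lines, 1 marker per array (filled circle CD24+, open square CD24−). The OPM2 markers (red) lie left of all others for HOXB3 to HOXB9, the class II genes, IGKC, the S100 genes, PHGDH, PSAT1, HK1 and MAF, and right of all others for IGLC1, HK2, PFKP, XBP1, POU2AF1, SLAMF7, CCND2, ITGB7 and CX3CR1.

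Some interferon-stimulated genes, a set that cells raise on exposure to interferon, were lower in OPM2. Of 20 tested 5 were called lower and none higher, 11 lay below all other arrays and 1 above, and the median was −0.98 (−1.16 without the OPM2 CD24+ array). ISG20, an exonuclease against viral RNA, measured 2064 and 1871 in ARP1, 1980.3 and 1583 in OCI-MY5, and 179 and 151 in OPM2. It was 10.4-fold lower (−3.38 ± 0.22, limma adjusted p = 0.00108). ISG15, a ubiquitin-like modifier, measured 1748 and 1748 in ARP1, 1294 and 911 in OCI-MY5, and 182 and 158 in OPM2, a difference of −2.91 ± 0.33 (limma adjusted p = 0.00576). OAS2, which senses double-stranded RNA, differed by −1.84 ± 0.23 and the GTPase GBP2 by −2.09 ± 0.38. ISG20 and GBP2 stayed called without the CD24+ array, where ISG15 differed by −2.88. A further 13 genes of the list were too dim to be tested.

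A minority of NF-kB genes and immediate early genes were called lower. NFKBIA, the inhibitor that NF-kB itself induces, measured 2834 and 2250.2 in ARP1, 3794 and 3115 in OCI-MY5, and 504 and 584 in OPM2. It was 5.31-fold lower (−2.41 ± 0.28, limma adjusted p = 0.00617). The NF-kB subunits REL (−1.39 ± 0.32) and NFKB1 (−1.14 ± 0.26) and the surface protein CD83 (−1.75 ± 0.41) were also called lower. Of 21 tested 5 were called lower and none higher. The median of −0.58 was unstable, at −0.14 with quantile normalization and −0.09 without the OPM2 CD24+ array, where none stayed called. Among 20 AP-1 and immediate early genes 3 were called lower, EGR1, MAFF (−2.30 ± 0.35) and IER3 (−1.85 ± 0.26), and 1 higher, the transcription factor KLF4. KLF4 measured 95.4 and 34.2 in ARP1, 1.15 and 1.58 in OCI-MY5, and 389 and 515 in OPM2 (3.69 ± 0.84, limma adjusted p = 0.0404). In this list KLF4 entered the test through OPM2, since the mean of the ARP1 and OCI-MY5 arrays was under the brightness limit. That list's median was −1.55 against ARP1 and 0.07 against OCI-MY5, so its overall median of −0.91 did not describe both lines, and none stayed called without the OPM2 CD24+ array.

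Of 23 genes of cytokine signalling through JAK and STAT, 5 were called lower and none higher, while 9 lay below all other arrays and 5 above. PTPRC, the leukocyte phosphatase CD45, measured 1148 and 1765 in ARP1, 3838 and 3250.2 in OCI-MY5, and 62.4 and 56.2 in OPM2. It was lower, with both OPM2 arrays in the background range (−4.91 ± 0.54, limma adjusted p = 0.00505), and all 5 of its probe sets were lower. JAK3, the kinase of the common gamma chain receptors, measured 354 and 278 in ARP1, 507 and 385 in OCI-MY5, and 3.94 and 30.0 in OPM2, a difference of −3.68 ± 0.42 (limma adjusted p = 0.00577), but its 3 dimmer probe sets gave 0.05 to 0.30. STAT5A (−2.51 ± 0.29) and the kinase PIM1 (−2.11 ± 0.34) were lower as well. IL6R, the interleukin 6 receptor, went the other way, at 2556 and 3213 in ARP1, 391 and 455 in OCI-MY5, and 15649 and 14389 in OPM2, but was not called (3.74 ± 1.0, limma adjusted p = 0.0609); its values were seen before it was chosen for mention. The list's median was −0.33, and JAK3 alone stayed called without the OPM2 CD24+ array.

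Single cancer testis antigens differed widely, from near background to strong. Of 20 named on the array 11 were bright enough to be tested, 6 of them called higher and 1 lower. In 5 of the 11 the other lines were under the brightness limit, CTAG2, MAGEA4 and MAGEC1 among them, so the count follows in part from that limit and is given as a description. Without the OPM2 CD24+ array 9 were tested, 4 called higher and 1 lower. MAGEA4 measured 9.44 and 43.9 in ARP1, 6.86 and 17.9 in OCI-MY5, and 3202 and 5396 in OPM2 and MAGEC1 measured 3.70 and 60.9 in ARP1, 83.1 and 43.3 in OCI-MY5, and 6768 and 6856 in OPM2. Their differences were 6.98 ± 0.30 and 6.97 ± 0.65 (limma adjusted p = 0.000527 and 0.00309), from near background to clear signal. MAGEA12 differed by 4.54 ± 0.37. MAGEB1 was the reverse, at 3690.3 and 4059.8 in ARP1, 3628 and 3420.0 in OCI-MY5, and 3.43 and 1.99 in OPM2, a difference of −7.63 ± 0.22 (limma adjusted p = 0.000335). Members of the MAGEA family and CTAG2 have near-identical relatives, so a probe set may report more than the gene it is named for.

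Many S100 proteins, small calcium-binding proteins, and annexins, which bind membranes in a calcium-dependent way, were lower in OPM2. Of 14 tested 7 were called lower and 1 higher, with a median of −0.97 (−0.84 without the OPM2 CD24+ array, where none stayed called). S100A4 measured 62751 and 63999.7 in ARP1, 3623 and 3452 in OCI-MY5, and 14.4 and 18.1 in OPM2. It was lower (−8.86 ± 1.51, limma adjusted p = 0.0182). S100A6 measured 25122 and 26518 in ARP1, 4600.3 and 4543 in OCI-MY5, and 24.2 and 49.4 in OPM2 and S100A10, the partner of annexin A2, measured 20160.2 and 18780.1 in ARP1, 3785 and 3619 in OCI-MY5, and 14.4 and 28.6 in OPM2. All of these genes were in the background range in OPM2 and lower in OCI-MY5 than in ARP1. ANXA6 differed by −5.29 ± 0.87, and ANXA11 was the member called higher (1.47 ± 0.34).

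Several adhesion receptors that were at or near background in ARP1 and OCI-MY5 were strong in OPM2. CDH2, the neural cadherin, measured 3.54 and 81.8 in ARP1, 12.3 and 57.9 in OCI-MY5, and 5535 and 3933 in OPM2. It was higher, from the background range (6.71 ± 0.56, limma adjusted p = 0.00213; 5.54 and, alone in the list, still called without the CD24+ array). DSG2, a cadherin of desmosomes, measured 2.17 and 4.51 in ARP1, 28.7 and 3.46 in OCI-MY5, and 1711 and 1935 in OPM2, a difference of 6.27 ± 0.42 (limma adjusted p = 0.0011). CD81, a tetraspanin of the B cell receptor complex, measured 32.3 and 109 in ARP1, 63.0 and 15.2 in OCI-MY5, and 2772 and 3377 in OPM2, a difference of 5.63 ± 0.58. Both OPM2 values of each lay far above the background range. For CDH2, DSG2 and CD81 the mean of the ARP1 and OCI-MY5 arrays was under the brightness limit. These genes therefore entered the test through OPM2, and the list's count of calls follows in part from that limit. DSG2 was not tested without the OPM2 CD24+ array. ITGB5 was also higher (1.56 ± 0.22), and S1PR1, the receptor that guides lymphocytes out of tissue, was lower (−2.39 ± 0.53). Of 28 genes tested 7 were called higher and 1 lower, yet the list's median was −0.05, since the other members spread to both sides.

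A row of 7 genes of the HOXB cluster on chromosome 17 was lower in OPM2. In the order of genes along the chromosome, HOXB3, HOXB4, HOXB5, HOXB6, HOXB7, HOXB8 and HOXB9 followed each other among the tested genes and all 7 were called lower. These developmental transcription factors were found in the search for runs of neighbours described below and were chosen after their values were seen. HOXB9 measured 607 and 597 in ARP1, 998 and 674 in OCI-MY5, and 7.25 and 11.5 in OPM2, a difference of −4.83 ± 0.30 (limma adjusted p = 0.000951). HOXB6 measured 348 and 298 in ARP1, 476 and 398 in OCI-MY5, and 5.19 and 3.69 in OPM2, a difference of −4.26 ± 0.26 (limma adjusted p = 0.000914). Both OPM2 values of these 2 genes lay within the TrpnX range. HOXB7, the member with signal left in OPM2, measured 1547 and 1889.9 in ARP1, 2409 and 2774 in OCI-MY5, and 242 and 102 in OPM2 (−3.60 ± 0.41). The smallest difference of the 7 was that of HOXB5, −1.55 ± 0.29. HOXB2, which is not among the 7, measured 32.8 and 150.6 in ARP1, 74.1 and 97.8 in OCI-MY5, and 9.39 and 42.4 in OPM2. Its OPM2 arrays thus did not both lie below all others. HOXB3, HOXB6, HOXB7 and HOXB9, 4 of the 7, stayed called without the OPM2 CD24+ array.

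Chromatin genes showed calls on both sides. Beyond NSD2, OPM2 was higher in ASXL1, a Polycomb cofactor on its brightest probe set (882 and 921 in ARP1, 1328 and 1182 in OCI-MY5, and 5071 and 4208 in OPM2; 2.10 ± 0.27, limma adjusted p = 0.00815). The other 5 probe sets of ASXL1 ran from −0.84 to 0.57, and 2 of them were lower. KDM4B, a demethylase of histone H3 lysine 9, differed by 1.72 ± 0.26 (6 of its 8 probe sets were higher) and DOT1L, the methyltransferase of H3 lysine 79, by 1.27 ± 0.30. The other probe sets of DOT1L gave 0.76 and −0.10. KDM5B, a demethylase of H3 lysine 4, was lower, at 1327 and 968 in ARP1, 1202 and 1206 in OCI-MY5, and 128 and 86.9 in OPM2 (−3.28 ± 0.23, limma adjusted p = 0.00139), and all 5 of its probe sets were lower. PCGF2 (−2.31 ± 0.40) and KDM2B (−1.12 ± 0.25), both of Polycomb complexes, were lower too. Of 31 genes tested 4 were called higher and 3 lower, and the median was 0.08, or −0.26 with centred arrays. KDM5B and PCGF2 stayed called without the OPM2 CD24+ array.

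Hexokinase transcripts differed by isoenzyme, with more HK2 and less HK1 in OPM2. HK2, the inducible hexokinase, measured 768 and 771 in ARP1, 812 and 867 in OCI-MY5, and 7424 and 7022 in OPM2. It was 8.83-fold higher in OPM2 (3.14 ± 0.22, limma adjusted p = 0.00123). HK1, the hexokinase of most tissues, measured 544 and 476 in ARP1, 585 and 578 in OCI-MY5, and 27.6 and 19.0 in OPM2 and was lower, down to the background range (−3.84 ± 0.23, limma adjusted p = 0.000816). The values of OPM2 and of the other lines did not overlap for either, which the rule for a call requires. Without the OPM2 CD24+ array HK2 differed by 3.08 and HK1 by −3.95. PFKP, the platelet form of phosphofructokinase, measured 102 and 97.0 in ARP1, 93.9 and 23.3 in OCI-MY5, and 4959 and 8599 in OPM2, a difference of 6.23 ± 0.55 (limma adjusted p = 0.00258). PDK1, which restrains entry of pyruvate into the mitochondrion, was higher by 2.12 ± 0.21, and BNIP3L, a mitophagy receptor, by 1.85 ± 0.35.

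Some other genes known as targets of hypoxia were lower. ADM, the vasodilator peptide adrenomedullin, measured 5884 and 5509 in ARP1, 12457 and 12012 in OCI-MY5, and 116 and 24.7 in OPM2, a difference of −6.83 ± 0.56 (limma adjusted p = 0.0021). P4HA2, a collagen prolyl hydroxylase, differed by −4.85 ± 0.38 and SLC2A3, the glucose transporter GLUT3, by −2.89 ± 0.51. Over glycolysis and hypoxia genes together, 6 of 28 were called higher and 4 lower, with a median of 0.43 (0.10 with centred arrays). Without the OPM2 CD24+ array 2 were still called higher and 3 lower.

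PSAT1 and PHGDH, of the 3 enzymes of serine synthesis, were lower in OPM2. PSAT1, which makes phosphoserine, measured 9555 and 9945 in ARP1, 6816 and 7947 in OCI-MY5, and 27.4 and 5.78 in OPM2. It was lower, down to the background range (−8.11 ± 0.35, limma adjusted p = 0.000527; −8.68 and still called without the CD24+ array). PHGDH, the enzyme of the step before it, measured 2430.2 and 2451 in ARP1, 958 and 819 in OCI-MY5, and 59.5 and 67.7 in OPM2, a difference of −4.23 ± 0.57 (limma adjusted p = 0.00884) that was not called without the CD24+ array (limma adjusted p = 0.102). PSPH, the enzyme of the last step, was not called: its brightest probe set differed by −0.83 ± 0.28 (limma adjusted p = 0.102) and the others by 1.44 and 0.44. PSAT1 and PHGDH are targets of ATF4, the transcription factor of the amino acid response. The hormone gene STC2 (−3.46 ± 0.25) and the seryl-tRNA synthetase SARS1 (−1.55 ± 0.22) of that list were lower too, while DDIT4, an inhibitor of mTORC1, was higher (1367 and 1978 in ARP1, 3185 and 2403 in OCI-MY5, and 8169.6 and 10175 in OPM2; 2.09 ± 0.38). So was ALDH1L2, a mitochondrial enzyme of folate metabolism (1.54 ± 0.33). The remaining members did not follow: of 28 tested 2 were called higher and 4 lower, and the median was 0.15, or −0.18 with centred arrays. PSAT1 and STC2 stayed called without the CD24+ array.

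The lists of protein turnover and folding, respiration, lipid synthesis, proliferation, cell death and the cereblon axis gave few calls, and none was kept without the OPM2 CD24+ array. No proteasome subunit of 27 was called by limma, with 5 at an unadjusted p under 0.05 and a median of −0.34. PSMD2 had both OPM2 arrays lowest, at −1.14 ± 0.30 (limma adjusted p = 0.0557). No cytosolic ribosomal protein of 27 was called by limma, with 1 at an unadjusted p under 0.05 and a median of 0.01, and RPL18 and RPS3 were at −0.61 ± 0.24 and −0.39 ± 0.23. Of 40 mitochondrial ribosomal proteins 2 were called lower, MRPL22 (−1.06 ± 0.26) and MRPS10 (−1.26 ± 0.31). The direction of MRPS10 turned to 0.0035 without the ARP1 CD24+ array and to 0.39 without OCI-MY5, where another probe set was the brightest. Of 34 genes of the unfolded protein response and folding in the endoplasmic reticulum 2 were called higher, XBP1 and SSR1, a subunit of the translocon-associated complex (1.18 ± 0.24), with a median of −0.09.

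Among 44 respiratory chain subunits 3 were called higher, SDHA (1.06 ± 0.25), SDHC (0.97 ± 0.23) and COX6A1 (0.91 ± 0.22), and 1 lower, NDUFS4 (−1.07 ± 0.21). The median of 0.26 became −0.07 with centred arrays. SDHA and SDHC belong to succinate dehydrogenase, and SDHA, which has close pseudogene copies, measured 5451 and 5002 in ARP1, 3829 and 4361 in OCI-MY5, and 9253 and 10068 in OPM2. In sterol and fatty acid synthesis DHCR7, the last enzyme of cholesterol synthesis, was the only one of 26 called (1.55 ± 0.26), 11 lay above all other arrays and 4 below, and the median was 0.37 (0.04 with centred arrays).

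Proliferation genes gave few calls. Of 33 G2 and mitosis genes 2 were called higher, the phosphatase CDC25B at 2956 and 2256 in ARP1, 2318 and 2665 in OCI-MY5, and 7866 and 7157 in OPM2 (1.56 ± 0.23, limma adjusted p = 0.0126) and the spindle checkpoint kinase TTK (0.95 ± 0.23), with a median of −0.21. Of 30 G1/S and replication genes 2 were called lower, RRM2, a subunit of ribonucleotide reductase, at 49599 and 37795 in ARP1, 41780.4 and 44061 in OCI-MY5, and 12533 and 13427 in OPM2 (−1.73 ± 0.23, limma adjusted p = 0.0088), and the helicase subunit MCM7 (−0.90 ± 0.21), with a median of 0.04 (−0.29 with centred arrays). Neither RRM2 nor CDC25B overlapped between OPM2 and the others, which the rule for a call requires. The other probe set of RRM2 gave −0.39.

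Cell death genes held 2 called higher, the protease CASP6 (1.56 ± 0.27) and CFLAR, an inhibitor of caspase 8 (1.16 ± 0.22), and 1 lower, BID, which links caspase 8 to mitochondria. BID measured 4197 and 3866 in ARP1, 3265 and 3751 in OCI-MY5, and 976 and 1439.8 in OPM2, a difference of −1.65 ± 0.25 (limma adjusted p = 0.0131). CFLAR's 14 probe sets ran from −1.23 to 2.13. The list of 24 had a median of 0.39, or 0.06 with centred arrays. In the cereblon axis, through which lenalidomide acts, IKZF3, the degraded transcription factor Aiolos, was the only one of 16 called, at 2068 and 2156 in ARP1, 2052 and 1412 in OCI-MY5, and 653 and 525 in OPM2 (−1.67 ± 0.26, limma adjusted p = 0.0139). The receptor CRBN differed by −0.15 ± 0.22, not called.

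**Figure D4:**
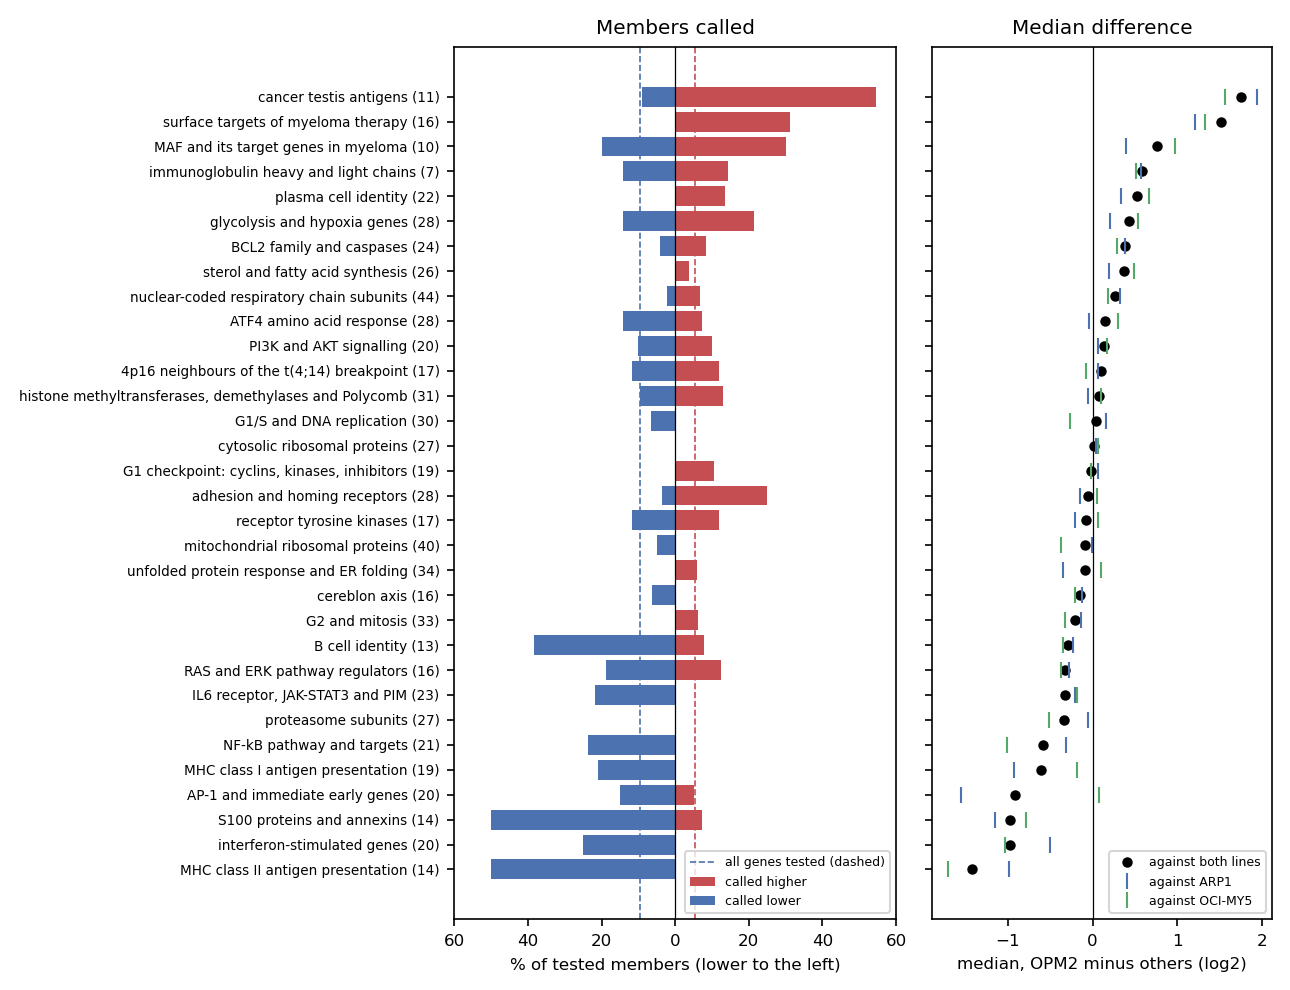
Left, the share of tested members of each gene list called higher (red, to the right) and lower (blue, to the left) in OPM2, with dashed lines at the 5.37% and 9.49% of all tested genes and the number tested in brackets; right, the median difference of the members on the log2 scale against both lines (dots), ARP1 (blue ticks) and OCI-MY5 (green ticks). Cancer testis antigens, whose place follows in part from the brightness limit, and surface targets lie at the top, class II genes at the bottom, with 7 of 14 called lower, and the ticks of the AP-1 list lie on opposite sides of 0.

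Markers of other cell types were mostly too dim to be tested. Of the T and NK cell markers 3 of 13 named on the array were tested and none was called, and of the myeloid markers 2 of 9, with none called. CD3D, CD3E, CD14 and LYZ were among the dim ones. The mean log2 level of the myeloid list was 7.16 on the OPM2 CD24+ array, 5.59 on the CD24− array and 5.12 to 5.83 on the others, and that of the stromal and endothelial list 7.17, 6.10 and 6.06 to 6.27. In the latter PECAM1 was called higher (157 and 87.5 in ARP1, 92.0 and 105 in OCI-MY5, and 402 and 239 in OPM2; 1.40 ± 0.29), though not without the CD24+ array. CD2, a T cell marker, had both OPM2 arrays highest without a call (0.97 ± 0.28).

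Globin transcripts were an exception. HBD, the delta globin gene, measured 37.4 and 93.4 in ARP1, 8.08 and 72.01 in OCI-MY5, and 10674 and 7562 in OPM2. The difference was 7.25 ± 0.55 (limma adjusted p = 0.00166). Since the mean of its ARP1 and OCI-MY5 arrays was under the brightness limit, HBD entered the test through OPM2 and had to differ. HBB, the beta globin gene, measured 76.2 and 225 in ARP1, 99.9 and 192 in OCI-MY5, and 2298 and 1792 in OPM2, a difference of 3.75 ± 0.38 (limma adjusted p = 0.00415). The 2 genes are close copies, so their probe sets may share signal, and both stayed called without the CD24+ array. The other erythroid and platelet genes were dim: ALAS2, which starts heme synthesis in red cell precursors, was at 87.7 and 3.82 in OPM2, and AHSP, the chaperone of alpha globin, at 8.16 and 73.1. The mean log2 level over the 7 genes named on the array was 7.11 and 7.12 in OPM2 and 5.60 to 6.34 in the other lines. The part of other cells in these values was not tested.

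Higher and lower genes were unevenly spread over the chromosomes. Of 554 tested genes on chromosome 5, 49.1% lay below all other arrays in OPM2 and 10.5% above, with a median difference of −0.52, against 25.3% and 21.3% over all genes. Chromosomes 21 (44.3% below), 7 (39.3%) and 3 (36.1%) came next. On chromosome 16 it was the reverse, with 37.5% above, 11.4% below and a median of 0.36, and chromosomes 18 and 20 had 34.7% and 33.8% above. These shares are a description, since neighbouring genes are not independent. Without the OPM2 CD24+ array chromosome 5 had 62.1% below, against 36.4% over all genes, and chromosome 16 had 47.4% above, against 27.3%. With centred arrays chromosome 5 had 53.4% below, against 29.1% over all genes, and chromosome 16 had 16.5% above, against 9.52%. Each was the highest share of its direction in these settings, except that chromosome 20 had 48.2% above without the CD24+ array.

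**Figure D5:**
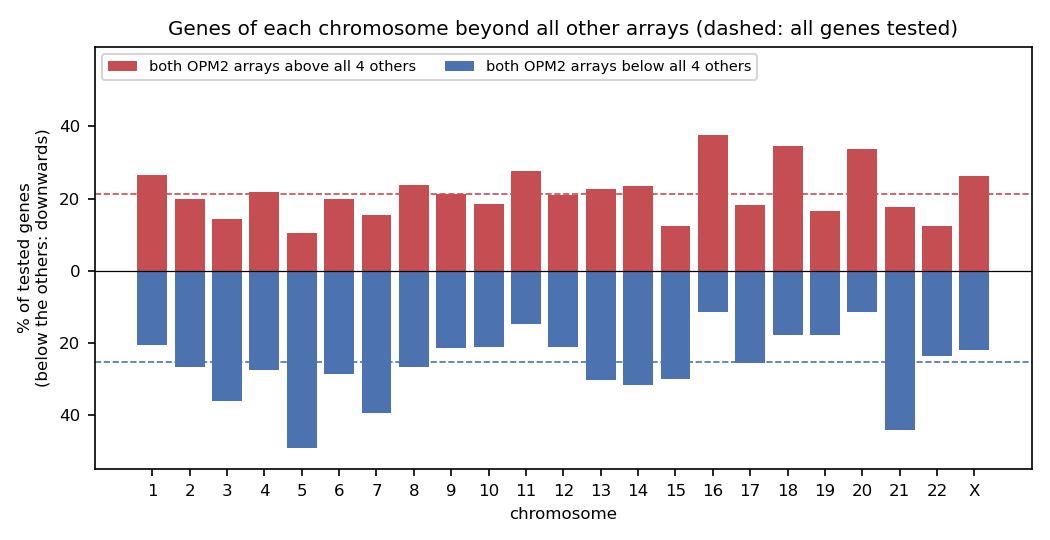
Share of the tested genes of each chromosome for which both OPM2 arrays lay above (red, upwards) or below (blue, downwards) all 4 other arrays, with dashed lines at the 21.3% and 25.3% of all tested genes. Chromosome 5 has the deepest blue bar (49.1%) and a short red one (10.5%), and chromosomes 16, 18 and 20 have the tallest red bars.

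Runs of at least 5 neighbouring tested genes that all lay beyond the other arrays in the same direction numbered 61 lower, with 394 genes, and 28 higher, with 156. The longest covered 16 genes on chromosome 5 from MACROH2A1 to CTNNA1, with a median of −0.98 and 6 of them called, EGR1 among these. A second on chromosome 5 reached from LARP1 to PWWP2A over 14 genes and includes MRPL22. On chromosome 1 a run of 13 from EEIG2 to PSMA5, median −1.42, includes SARS1. On chromosome 2, 12 genes from ITGB1BP1 to ODC1 had a median of −1.90, and 10 of them were called, RRM2 among these. The longest run of higher genes, 9 on chromosome 1 from ATF6 to NUF2, had a median of 1.14 and 4 called.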

How the data were processed

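The intensity values are linear MAS5 signals that the authors computed with Affymetrix Expression Console 1.1, per the submitters' processing notes, in 1 deposited table of 54675 probe sets. On each array the mean without the highest and lowest 2% was the same, about 499.9, so the arrays were scaled to a common mean before deposit. MAS5 does not share information between arrays, and its dim values are noisy. No genome build is given in the sources used here.

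Control probe sets (62) were set aside. Through the platform annotation 41091 probe sets have 1 gene symbol, 1801 several and 11721 none, and symbols were updated to RefSeq by Entrez ID (41037 matched). Of 19775 genes 35, Y-linked or of X inactivation, were left out, and some list genes are not reported here. Each gene was read from its brightest probe set by the mean over all arrays. Genes whose mean log2(intensity + 16), computed from the deposited intensities, was at or above that of the middle probe set entered the test, 12074 of 19740. limma 3.58.1 in R 4.3.3 (lmFit, eBayes) compared OPM2 with the other lines, with the CD24 fraction as covariate, and was checked on simulated data. Differences against ARP1 and OCI-MY5 singly share the OPM2 arrays. With 2 arrays against 4, the number of arrays limits the precision.

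The line comparison, the gene lists and the tests were chosen with earlier results of these data known. Named were the 15 genes per direction with the widest gap among those called, up to 4 called genes per list and direction, and 2 genes of a list without calls. The HOXB genes, CD48, IL6R, B2M, HLA-B, PSPH, MZB1, SDC1, TNFRSF17 and CRBN were named after their values were seen. Alternatives changed the pseudocount, brightness limit, scaling, probe set summary, model and arrays. Promoters are RefSeq sequences matched by symbol.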

Additional observations from a re-analysis of the deposited data

Results flagged for a closer look

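The spike-in transcripts, which the comparison of lines does not use, had a geometric mean intensity of 37361.9 on the OPM2 CD24+ array, above the range of the other arrays. Probe sets with no gene symbol or with several were not part of the gene results: of 13522 such probe sets 4873 were bright enough to be tested, and 186 were called in OPM2, 90 higher and 96 lower.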

How the results depend on the processing

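Counts of called genes moved most with the arrays kept. Leaving out each array in turn gave 51 to 476 genes called higher and 288 to 769 lower, lowest without the OPM2 CD24+ array for both directions, and 2822 to 4485 genes with both OPM2 arrays, or the remaining one, above all others. Here OPM2 rests on 1 array in the settings without either of its arrays, which is taken to vary like the other lines. The other changes in these counts were 337 higher and 553 lower with no limit on dim genes, 375 higher (and 1150 above all others) with centred arrays, 1224 and 1784 with a mean each for ARP1 and OCI-MY5, and 145 and 365 with line means as units. Without ARP1 there were 415 higher, 450 lower and 3935 above all others, and without OCI-MY5 288 and 472. With every probe set on its own, 4548 lay above and 5133 below. Of 135 named genes that were called, 129 were tested without the OPM2 CD24+ array, where 46 kept their call and 83 lost it; 65 kept and 70 lost it with line means, 115 and 20 with centred arrays, and none of these turned. Of the 135, 93 have several probe sets, and in 30 at least 1 lay on the other side. Those that turned in any setting run were FGFR4 (0.72 without ARP1), CIITA (−2.20 to 0.79 over single arrays left out, 0.54 without OCI-MY5) and MRPS10 (−1.59 to 0.0035 and 0.39). In each setting where they turned, another probe set of the gene was the brightest and was read instead. In the array titles the replicate number goes with the line and is the same for both fractions, so it cannot be told apart from the line. The model holds the CD24 fraction as covariate, and without that covariate 922 genes were called higher and 1490 lower. Dim genes carry the least certain differences.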
